A study of Mus musculus with 9 samples.

Results

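The 8 genes described here form the hedgehog axis of the uterus, from the ligand Ihh through the receptor Ptch1, its partner Smo and the transcription factors Gli1, Gli2 and Gli3 to the stromal regulators Nr2f2 and Hand2. They were found by symbol, and all 8 stand among the 15158 gene symbols of the table. RNA-seq was performed on uterine luminal epithelium, the layer that faces the uterine cavity, which had been cut out by laser capture on pregnancy day 4 from females kept to 8 weeks of age before mating. There were 3 libraries of each of 3 genotypes. The ePRAoe females were Wnt7acre/+PgrALsL/+ and overexpress isoform A of the progesterone receptor in the epithelium, and the ePRBoe females were Wnt7acre/+PgrBLsL/+ and overexpress isoform B. The Wnt7acre females carried the cre recombinase without either Pgr allele and were the controls, so that all 3 genotypes shared the cre. In these mice the recombinase is driven by Wnt7a, a gene of the uterine epithelium, and the receptor alleles are thereby meant to be switched on in epithelial cells and not in the stroma beneath. The labels number the bioreplicates without naming the animals, so p-values measure only the spread between these samples, which may be in part technical.

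Hedgehog signalling carries a message between neighbouring cells: the ligand binds Ptch1, Ptch1 then releases its hold on Smo, and Smo turns the Gli factors toward activating their targets. In the mouse uterus progesterone acting on the epithelium induces Ihh, and the cells that answer are largely those of the stroma, where Nr2f2 (COUP-TFII) and then Hand2 are induced. Hand2 in turn restrains fibroblast growth factors that would keep the epithelium dividing under estrogen, which is why the axis is studied in implantation.

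Promoter windows of 4 of the genes are printed because they stand at the head of the axis (Ihh), in its middle (Gli2 and Gli3, both called higher in ePRBoe) and at its end (Hand2). Each runs from 250 bases before to 50 bases after the gene's start in RefSeq on GRCm38.p6, 5′ to 3′ on the gene's own strand. Capitals mark the letters CCACCC on either strand (GGGTGG where they lie on the other strand), which are the core of the longer site that Gli proteins bind, GACCACCCA. The Ihh window lies at chr1:74951623-74951922 on the minus strand, that of Gli2 at chr1:119053570-119053869 on the minus strand, that of Gli3 at chr13:15463473-15463772 on the plus strand and that of Hand2 at chr8:57320733-57321032 on the plus strand.
Ihh: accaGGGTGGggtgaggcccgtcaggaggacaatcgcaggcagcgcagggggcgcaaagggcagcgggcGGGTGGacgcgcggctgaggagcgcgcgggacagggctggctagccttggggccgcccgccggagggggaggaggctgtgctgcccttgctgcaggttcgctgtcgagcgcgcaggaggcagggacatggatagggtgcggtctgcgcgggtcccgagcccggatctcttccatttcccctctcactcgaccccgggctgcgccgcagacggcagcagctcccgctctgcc
Gli2: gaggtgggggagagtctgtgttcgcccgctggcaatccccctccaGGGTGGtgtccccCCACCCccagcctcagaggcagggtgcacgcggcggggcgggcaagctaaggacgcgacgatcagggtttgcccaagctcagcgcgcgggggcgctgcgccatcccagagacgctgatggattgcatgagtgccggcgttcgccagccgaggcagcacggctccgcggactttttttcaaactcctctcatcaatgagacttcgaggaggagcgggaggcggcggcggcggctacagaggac
Gli3: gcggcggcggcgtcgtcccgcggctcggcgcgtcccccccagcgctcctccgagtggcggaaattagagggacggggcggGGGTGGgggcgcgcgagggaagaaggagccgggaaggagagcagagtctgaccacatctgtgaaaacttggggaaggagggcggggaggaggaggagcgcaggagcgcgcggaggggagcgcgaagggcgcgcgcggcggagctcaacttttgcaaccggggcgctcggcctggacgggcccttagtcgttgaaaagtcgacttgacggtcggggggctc
Hand2: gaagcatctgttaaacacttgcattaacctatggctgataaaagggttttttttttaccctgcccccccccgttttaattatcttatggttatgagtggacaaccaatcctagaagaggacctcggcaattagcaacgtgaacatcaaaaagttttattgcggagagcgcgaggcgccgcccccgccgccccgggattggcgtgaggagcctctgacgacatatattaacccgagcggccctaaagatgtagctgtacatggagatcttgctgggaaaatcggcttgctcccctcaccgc
The core letters occur at 2 places in the Ihh window, at 2 in that of Gli2, at 1 in that of Gli3 and at none in that of Hand2. Of the 7 member genes with a window in the RefSeq table, 4 (Ihh, Smo, Gli2 and Gli3) held CCACCC, which 31.5% of all 32851 promoter windows of this length also hold. The full GACCACCCA, searched on both strands and containing the core, was in none of the 7 and in 0.253% of all windows. The palindromic progesterone response element was likewise in none of the 7 (0.475% of all windows), and the single arm TGTTCT of that element was in none either (19% of all windows). These matches describe the letters in the windows and nothing about binding. The Gli1 window was not used here. In GENCODE M21 on mm10, Ptch1 lies at chr13:63508328-63573598 (minus strand), Smo at chr6:29735503-29761365 (plus), Gli1 at chr10:127329882-127341974 (minus) and Nr2f2 at chr7:70351944-70366735 (minus).

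The deposited values are FPKM, in which fragments are divided by gene length and by library size, and they can be compared between genes as levels per length. They were analysed as log2(FPKM + 1), and every log2 difference is on that scale, which understates the change of low genes. A gene was called where limma, fitted to all 9 libraries with terms for genotype and sequencing run, gave a Benjamini-Hochberg adjusted p under 0.05 over 12347 tested genes. Exact permutation tests of single genes are two-sided and cannot give a p below 0.1 with 3 libraries against 3. All 3 ePRBoe libraries were in run 1 with ePRAoe replicate 2 and Wnt7acre replicate 3, run 2 held ePRAoe replicate 3 and Wnt7acre replicate 2, and run 3 held ePRAoe replicate 1 and Wnt7acre replicate 1.

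The targeted gene Pgr, counted over both isoforms, averaged 44.7 ± 4.19 FPKM in ePRAoe, 40.8 ± 4.48 FPKM in ePRBoe and 9.28 ± 7.17 FPKM in Wnt7acre libraries (SD, n = 3 each). All 14 epithelium markers were present in every library, with summed levels of 1657 to 2332 FPKM in ePRAoe, 2046 to 2334 FPKM in ePRBoe and 2264 to 2569 FPKM in Wnt7acre. The 18 stroma markers, collagens and other genes of fibroblasts, summed to 260 to 414 FPKM in ePRAoe, 408 to 582 FPKM in ePRBoe and 98.1 to 122 FPKM in Wnt7acre libraries, and none of them was at 0 in any library. Of these markers 12 were called higher in ePRAoe and 14 in ePRBoe than in Wnt7acre, beside 7.2% and 6.41% of all tested genes. None was called lower, beside 8.98% and 2.48%. The calls of Col1a2, Col5a1, Col6a3 and Mfap5 could be ended in either genotype by leaving out a single library. In ePRBoe this also held for Col3a1, Fbn1 and Pdgfrb. Between ePRBoe and ePRAoe 0 were called, beside 0.324% of tested genes. There 7 of the 18 had an unadjusted p under 0.05 in limma's test, beside 2310 of the 12347 tested genes. The stroma marker levels thus separated the control from the overexpressing libraries, and their part in the differences below was not tested. In bulk samples such as these, more cells of a type and more RNA per cell cannot be told apart.

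Along the axis the deposited FPKM was highest for the ligand and lowest for the Gli factors in every genotype, subject to the unknown gene lengths. In ePRAoe and ePRBoe the order by mean FPKM was Ihh, Ptch1, Nr2f2, Smo, Hand2, Gli1, Gli2 and Gli3, and in Wnt7acre libraries only Smo and Nr2f2 changed places. Several neighbours had library ranges that overlapped. In ePRAoe these were Ihh and Ptch1, Nr2f2 and Smo, Hand2 and Gli1, Gli1 and Gli2, and Gli2 and Gli3. In ePRBoe they were Ptch1 and Nr2f2, Smo and Hand2, and Gli2 and Gli3, and in Wnt7acre Ptch1 and Smo, Smo and Nr2f2, and Gli2 and Gli3. Within single libraries most of these pairs kept the order of the means in all 3. The exceptions were Nr2f2 and Smo in ePRAoe (1 of 3) and Ptch1 and Nr2f2 in ePRBoe (2 of 3). In Wnt7acre they were Ptch1 and Smo, and Gli2 and Gli3 (2 of 3 each). The Gli genes were the low end: in Wnt7acre libraries all 3 were below 1 FPKM.

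**Figure D1:**
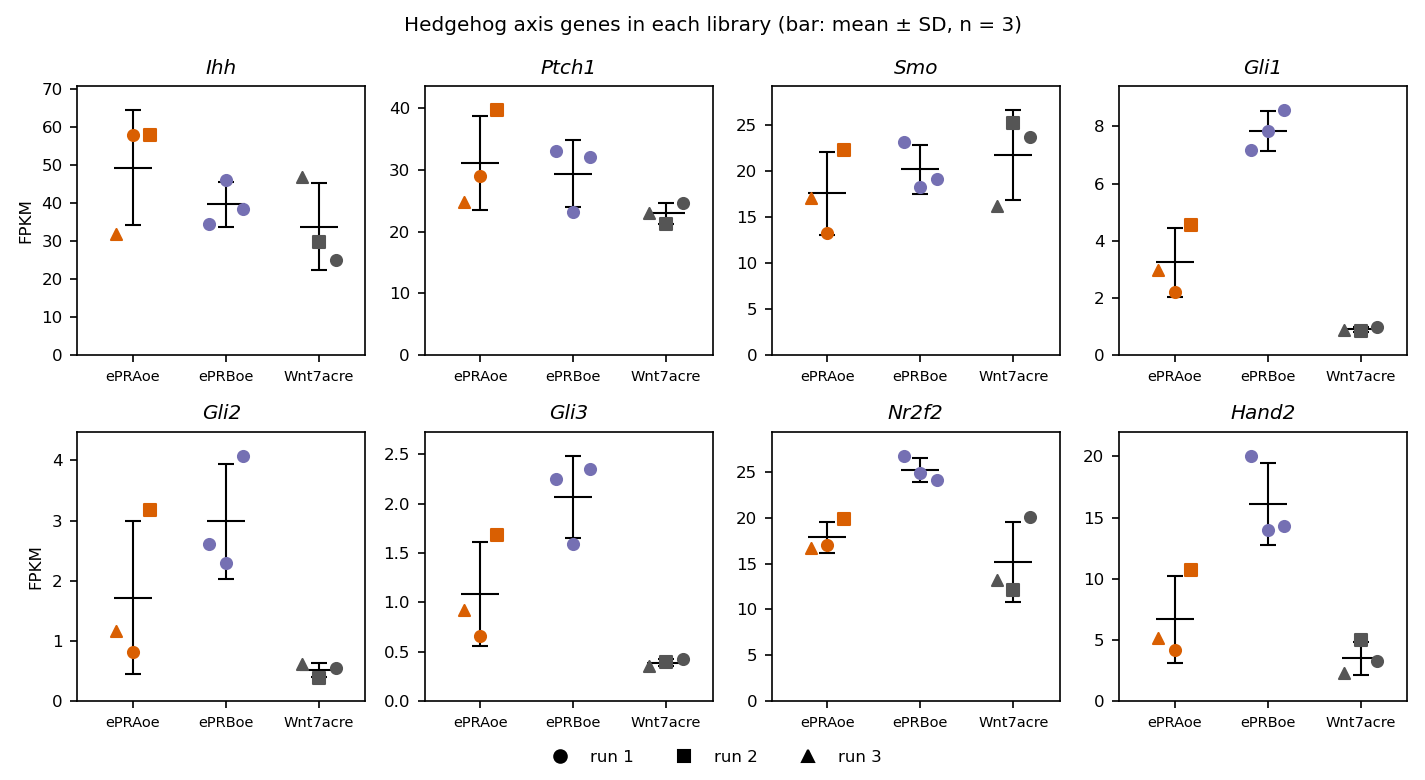
FPKM of the 8 genes in each of the 9 libraries, with genotypes along the x axis, the marker shape giving the sequencing run, and a bar at the mean with whiskers of 1 SD (n = 3); each panel has its own axis from 0. Gli1 is the gene in which every Wnt7acre library lies below every ePRAoe library and every ePRAoe library below every ePRBoe library.

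Against Wnt7acre, 4 of the 8 genes were called higher in ePRBoe (Gli1, Gli2, Gli3 and Hand2), beside 6.41% of all tested genes, and 1 of 8 was called higher in ePRAoe (Gli1), beside 7.2% of tested genes. None of the 8 was called lower in ePRBoe, beside 2.48% of tested genes, or in ePRAoe, beside 8.98%. The median log2 difference of the 8 genes was 0.54 in ePRAoe, against -0.03 over all tested genes, and 0.91 in ePRBoe, against 0.10 over all. Gli1, Gli2 and Gli3 reached the 1 FPKM that the test asked of at least 3 libraries only through overexpressing libraries, so these counts lean on genes that had to be higher there. Without that filter Gli1 (adjusted p = 0.00682), Gli2 (0.0434) and Gli3 (0.0243) were still called in ePRBoe.

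The ligand Ihh had the highest mean FPKM of the 8 genes in each genotype. Its level was 31.9, 57.9 and 57.9 FPKM in ePRAoe replicates 1 to 3, 34.4, 46.1 and 38.4 FPKM in ePRBoe replicates 1 to 3, and 46.7, 29.7 and 24.9 FPKM in Wnt7acre replicates 1 to 3. A pair of ePRAoe libraries stood above all others, while ePRAoe replicate 1 lay inside the control range and the groups overlapped. The log2 difference was 0.53 ± 0.308 (SE) in ePRAoe against Wnt7acre (95% interval -0.19 to 1.24, adjusted p = 0.284, exact permutation p = 0.2). In ePRBoe against Wnt7acre it was 0.31 ± 0.377 (-0.57 to 1.19, adjusted p = 0.657, exact permutation p = 0.5). Neither passed the test, and the intervals leave room for a difference in either direction.

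The runs split the Ihh values. Set against the Wnt7acre library of its own run, the ePRAoe library was higher by 1.18 in run 1 and by 0.94 in run 2, and differed by -0.54 in run 3, on the log2 scale. Run 3 held the lowest ePRAoe and the highest Wnt7acre value. Without ePRAoe replicate 1 the difference was 1.06 (adjusted p = 0.00794), and without Wnt7acre replicate 1 it was also 1.06 (adjusted p = 0.0079). Each run held 1 library of each of these 2 genotypes. With a run term, leaving out either one removes that run from the difference between them. Here and below, such a pair of omissions is therefore a single check. The Ihh comparison of ePRAoe with Wnt7acre therefore turned on the 2 libraries of run 3. Within run 1 the ePRBoe mean was 0.64 above the Wnt7acre library.

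**Figure D2:**
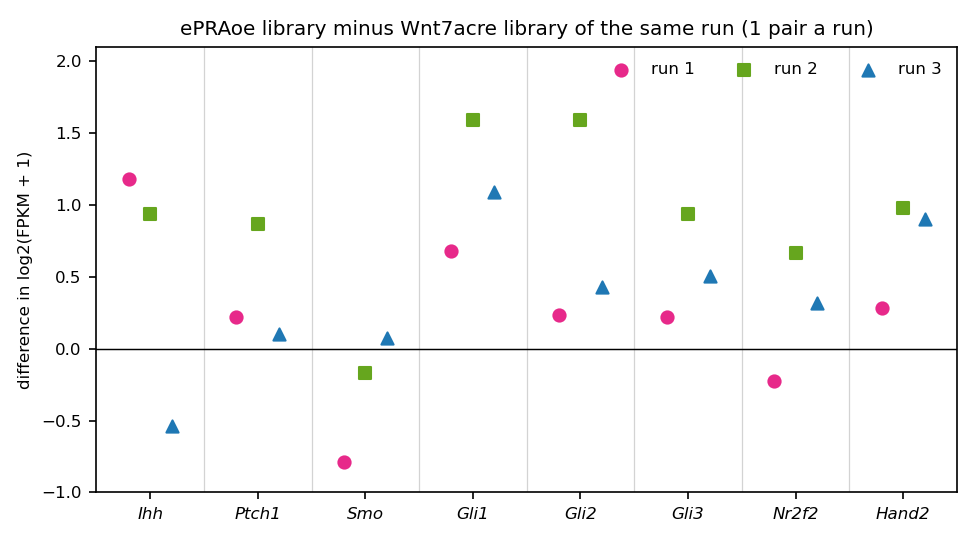
Difference in log2(FPKM + 1) between the ePRAoe library and the Wnt7acre library of the same sequencing run (y axis) for each of the 8 genes (x axis), with 1 pair of libraries in each of 3 runs. Gli1, Gli2, Gli3, Hand2 and Ptch1 lie above 0 in all 3 runs, and Ihh lies at 1.18 and 0.94 in runs 1 and 2 and at -0.54 in run 3.

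The receptor Ptch1, which is both the brake on the pathway and one of its transcriptional targets, had the second highest mean FPKM of the members. It had 24.8, 29.0 and 39.6 FPKM in ePRAoe libraries, 33.0, 23.2 and 32.0 FPKM in ePRBoe libraries and 23.0, 21.3 and 24.7 FPKM in Wnt7acre libraries. Every ePRAoe library was above every control, the lowest of them only just, while ePRBoe replicate 2 fell within the control range. Ptch1 differed by 0.40 ± 0.198 on the log2 scale in ePRAoe (SE, adjusted p = 0.215, exact permutation p = 0.1) and by 0.31 ± 0.243 in ePRBoe (SE, adjusted p = 0.471, exact permutation p = 0.2). Neither difference passed.

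Smo, the membrane protein that passes the signal inward, had similar levels in the 3 genotypes. Its values were 17.1, 13.3 and 22.3 FPKM in ePRAoe, 23.2, 18.2 and 19.1 FPKM in ePRBoe and 16.2, 25.2 and 23.7 FPKM in Wnt7acre libraries. All 3 groups overlapped. The log2 difference was -0.30 in ePRAoe (95% interval -0.73 to 0.14, adjusted p = 0.321) and 0.02 in ePRBoe (-0.51 to 0.55, adjusted p = 0.971). The sign of the ePRBoe difference turned with the scaling, to -0.13 with median-of-ratios factors and -0.04 with quantile normalization.

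Gli1, a transcriptional activator whose own transcription is a standard readout of hedgehog signalling, showed the largest fold of the 8 genes. Its level was 2.99, 2.20 and 4.57 FPKM in ePRAoe libraries, 7.16, 7.83 and 8.55 FPKM in ePRBoe libraries and 0.872, 0.851 and 0.997 FPKM in Wnt7acre libraries. The 3 genotypes formed 3 separate bands with the controls lowest and ePRBoe highest. Gli1 rose by 2.36 ± 0.251 on the log2 scale in ePRBoe against Wnt7acre (SE, adjusted p = 0.00458), with a ratio of mean FPKM of 8.65. It rose by 1.12 ± 0.205 in ePRAoe (SE, adjusted p = 0.0119), with a ratio of 3.59. The exact permutation p was 0.1 in each case.

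The ePRBoe call of Gli1 held under all 21 settings tried, with the difference within run 1 at 2.14. The ePRAoe call was lost without ePRAoe replicate 3 (adjusted p = 0.0581) or without Wnt7acre replicate 2 (0.0552), the 2 libraries of run 2, and also in a fit of ePRAoe and Wnt7acre alone (0.0515) or of run 1 alone (0.139), where 1 library of each genotype is compared. The ePRAoe library exceeded the Wnt7acre library of its run by 0.68, 1.59 and 1.09 in runs 1, 2 and 3. Gli1 shares 62 of its 4995 exonic bases with Arhgap9 on the other strand, and the strand setting of the counting is not given in the sources used here. Arhgap9 itself averaged 0.684 FPKM in ePRAoe, 2.17 FPKM in ePRBoe and 1.57 FPKM in Wnt7acre libraries.

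Gli2, the main activator among the factors that exist before the signal arrives, had 1.17, 0.816 and 3.19 FPKM in ePRAoe, 2.61, 2.29 and 4.07 FPKM in ePRBoe and 0.612, 0.385 and 0.544 FPKM in Wnt7acre libraries. Both overexpressing groups lay above every control library, and overlapped each other through ePRAoe replicate 3. It rose by 1.60 ± 0.372 in ePRBoe (SE, adjusted p = 0.0394), a ratio of mean FPKM of 5.82. In ePRAoe the difference was 0.75 ± 0.304 (SE, adjusted p = 0.136) and did not pass. The ePRBoe call of Gli2 was lost without ePRAoe replicate 2 (adjusted p = 0.136), ePRBoe replicate 1 (0.0846), 2 (0.0756) or 3 (0.101), or Wnt7acre replicate 3 (0.116). It was also lost with quantile normalization (0.0783), in a fit of ePRBoe and Wnt7acre alone (0.0638) and in run 1 alone (0.0616), both of which set ePRBoe against Wnt7acre replicate 3 only.

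Gli3, which acts mainly as a repressor when no ligand is bound, had 0.921, 0.659 and 1.68 FPKM in ePRAoe, 2.25, 1.59 and 2.36 FPKM in ePRBoe and 0.352, 0.397 and 0.424 FPKM in Wnt7acre libraries. The arrangement was that of Gli2: controls lowest without overlap, and ePRAoe replicate 3 the highest of its group. It rose by 1.26 ± 0.265 in ePRBoe (SE, adjusted p = 0.0287), a ratio of 5.28, and differed by 0.56 ± 0.216 in ePRAoe (SE, adjusted p = 0.124). Its ePRBoe call was lost without ePRAoe replicate 2 (adjusted p = 0.102), ePRBoe replicate 1 (0.0857), 2 (0.0554) or 3 (0.0863), or Wnt7acre replicate 3 (0.102), and under the same 3 other settings (0.0666, 0.0668 and 0.064). The activator-leaning and the repressor-leaning factor thus differed from Wnt7acre in the same direction.

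Nr2f2, the nuclear receptor that relays the hedgehog signal in the stroma, had 16.7, 17.1 and 19.8 FPKM in ePRAoe, 26.7, 24.9 and 24.1 FPKM in ePRBoe and 13.2, 12.1 and 20.1 FPKM in Wnt7acre libraries. The ePRBoe libraries were above all others, and Wnt7acre replicate 3 was above every ePRAoe library. The log2 difference was 0.55 ± 0.215 in ePRBoe (SE, adjusted p = 0.157, exact permutation p = 0.1), a ratio of mean FPKM of 1.67, and 0.25 ± 0.175 in ePRAoe (SE, adjusted p = 0.365). Neither passed. Without a term for the run the ePRBoe difference was 0.73 and did pass (adjusted p = 0.0281), and the Wnt7acre library sequenced in the same run as ePRBoe was the highest control. Nr2f2 shares 643 of 8625 exonic bases with B130024G19Rik on the other strand, which averaged 2.15 FPKM in ePRAoe, 3.19 FPKM in ePRBoe and 1.08 FPKM in Wnt7acre libraries.

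Hand2, the basic helix-loop-helix factor at the end of the axis, had 5.14, 4.18 and 10.7 FPKM in ePRAoe, 19.99, 14.0 and 14.3 FPKM in ePRBoe and 2.28, 4.97 and 3.27 FPKM in Wnt7acre libraries. Every ePRBoe library exceeded every other library, while ePRAoe replicate 2 lay below Wnt7acre replicate 2. Hand2 rose by 2.21 ± 0.251 in ePRBoe (SE, adjusted p = 0.00555), a ratio of mean FPKM of 4.60, and this call held under all 21 settings. In ePRAoe the log2 difference was 0.72 ± 0.205 (SE, adjusted p = 0.0520, exact permutation p = 0.2), just short of the threshold. It passed with a pseudocount of 0.1 (adjusted p = 0.0412) or 0.5 (0.0457), with median-of-ratios factors (0.0342) and with quantile normalization (0.0273). It did not pass in the other 17 of 21 settings, such as no run term (adjusted p = 0.184). Those 17 include every fit with a single library left out (adjusted p 0.0589 to 0.206). The ePRAoe library was above the Wnt7acre library of its run by 0.28, 0.98 and 0.90 in runs 1, 2 and 3.

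**Figure D3:**
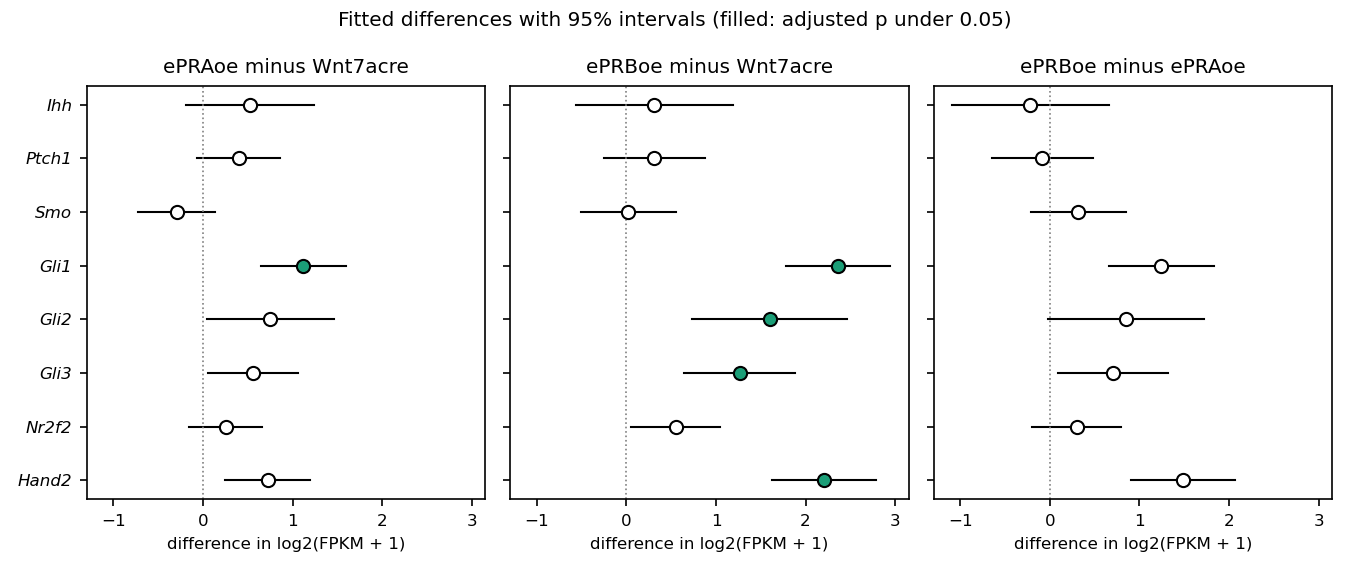
Fitted difference in log2(FPKM + 1) for each gene with its 95% interval (x axis) in ePRAoe minus Wnt7acre, ePRBoe minus Wnt7acre and ePRBoe minus ePRAoe; filled points passed an adjusted p of 0.05. The 4 filled points of ePRBoe minus Wnt7acre are Gli1 at 2.36, Hand2 at 2.21, Gli2 at 1.60 and Gli3 at 1.26, and the right panel has none.

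Groups that do not overlap were common in these data, so the separation of the libraries was read beside its background. In ePRAoe, 4 of 8 members (Ptch1, Gli1, Gli2 and Gli3) were above every Wnt7acre library, as were 12.6% of tested genes. In ePRBoe, 5 of 8 (Gli1, Gli2, Gli3, Nr2f2 and Hand2) were, as were 23.5% of tested genes. Gli1, Gli2 and Gli3 are in both counts and, having entered the test through overexpressing libraries, were bound to lie high there, so nothing is read from the counts.

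Whether the isoforms differed was asked directly, ePRBoe against ePRAoe. None of the 8 genes passed limma's test, beside 0.324% of all tested genes called in either direction. In that test 3 of the 8 (Gli1, Gli3 and Hand2) had an unadjusted p under 0.05, beside 2310 of the 12347 tested genes. Gli1 had a log2 difference of 1.24 ± 0.251 (SE, adjusted p = 0.0825, exact permutation p = 0.1) and Hand2 of 1.48 ± 0.251 (SE, adjusted p = 0.0706, exact permutation p = 0.1). For both, as for Nr2f2, every ePRBoe library was above every ePRAoe library, which held for 16.8% of tested genes. With the Wnt7acre libraries left out of the fit, Gli1 (adjusted p = 0.0381) and Hand2 (0.0391) passed, but that fit, like a fit of run 1 alone (0.0411 for Gli1 and 0.0413 for Hand2), sets the 3 ePRBoe libraries against ePRAoe replicate 2 only. The lone library is assumed there to vary like the others. Hand2 also passed without ePRAoe replicate 1 (0.0393) or Wnt7acre replicate 1 (0.0385), which gave the same difference of 1.53 and are not separate checks. Without ePRAoe replicate 2 the difference was 1.045 for Hand2 (adjusted p = 0.614) and 0.804 for Gli1 (0.692). Gli1 passed in no fit with a single library left out. The difference from ePRAoe replicate 2 alone was 1.46 for Gli1 and 1.70 for Hand2.

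For the other 6 members the isoform difference was smaller than these. It was 0.85 for Gli2 (95% interval -0.02 to 1.72), 0.71 for Gli3 (0.09 to 1.32), 0.31 for Smo (-0.22 to 0.85) and 0.30 for Nr2f2 (-0.20 to 0.80). Ihh differed by -0.22 (-1.09 to 0.66) and Ptch1 by -0.08 (-0.65 to 0.48). The intervals of the ligand and its receptor span 0 widely, so neither a difference nor its absence is shown. A strict order with every Wnt7acre library lowest, every ePRAoe library between and every ePRBoe library highest was met by 247 tested genes (2.0%), and Gli1 was the member among them.

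The libraries in which the Gli genes and Hand2 were higher also held more stroma marker RNA, so the level of each member was set beside it, in a calculation added after the values had been seen. Gli1 came to 1.15, 0.811 and 1.10 FPKM per 100 FPKM of summed stroma markers in ePRAoe libraries, 1.75, 1.51 and 1.47 in ePRBoe libraries and 0.889, 0.743 and 0.820 in Wnt7acre libraries. On this scale the ePRBoe libraries were above all others for Gli1, and the ePRAoe libraries overlapped those of Wnt7acre. These values describe the libraries and do not test the part of the stroma.

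Hand2, Gli2 and Gli3 did not separate on this scale, but for Gli2 and Gli3 the outcome turned on the scale, as given below. Hand2 averaged 2.04 ± 0.531 in ePRAoe, 3.35 ± 1.34 in ePRBoe and 3.12 ± 1.07 in Wnt7acre per 100 FPKM of stroma markers (SD, n = 3 each). Gli2 averaged 0.507 ± 0.240 in ePRAoe, 0.593 ± 0.135 in ePRBoe and 0.469 ± 0.145 in Wnt7acre on that scale. Gli3 averaged 0.334 ± 0.0832 in ePRAoe, 0.420 ± 0.123 in ePRBoe and 0.352 ± 0.00644 in Wnt7acre. For each of the 3 genes the ePRBoe and Wnt7acre libraries overlapped. The remaining members were lower per stroma marker in overexpressing libraries: Ptch1 averaged 9.93 ± 0.663 in ePRAoe, 6.02 ± 1.87 in ePRBoe and 20.8 ± 2.46 in Wnt7acre, and Smo and Nr2f2 likewise did not overlap the controls. The stroma marker sum was higher in overexpressing libraries, so a gene of unchanged FPKM comes out lower on this scale. Ihh, made by the epithelium, averaged 15.9 ± 4.82 in ePRAoe, 7.96 ± 1.21 in ePRBoe and 31.4 ± 14.4 in Wnt7acre. The log2(FPKM + 1) of each gene was also taken minus that of the stroma marker mean. Gli2 and Gli3 then lay lower in every overexpressing library than in any control, while Hand2 overlapped. For Gli3 the lowest Wnt7acre library stood at -1.90, the highest ePRAoe library at -2.39 and the highest ePRBoe library at -2.27. For Gli2 these were -1.89, -1.94 and -2.06. This log2 scale understates the change of low genes, so no direction is read from either scale.

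**Figure D4:**
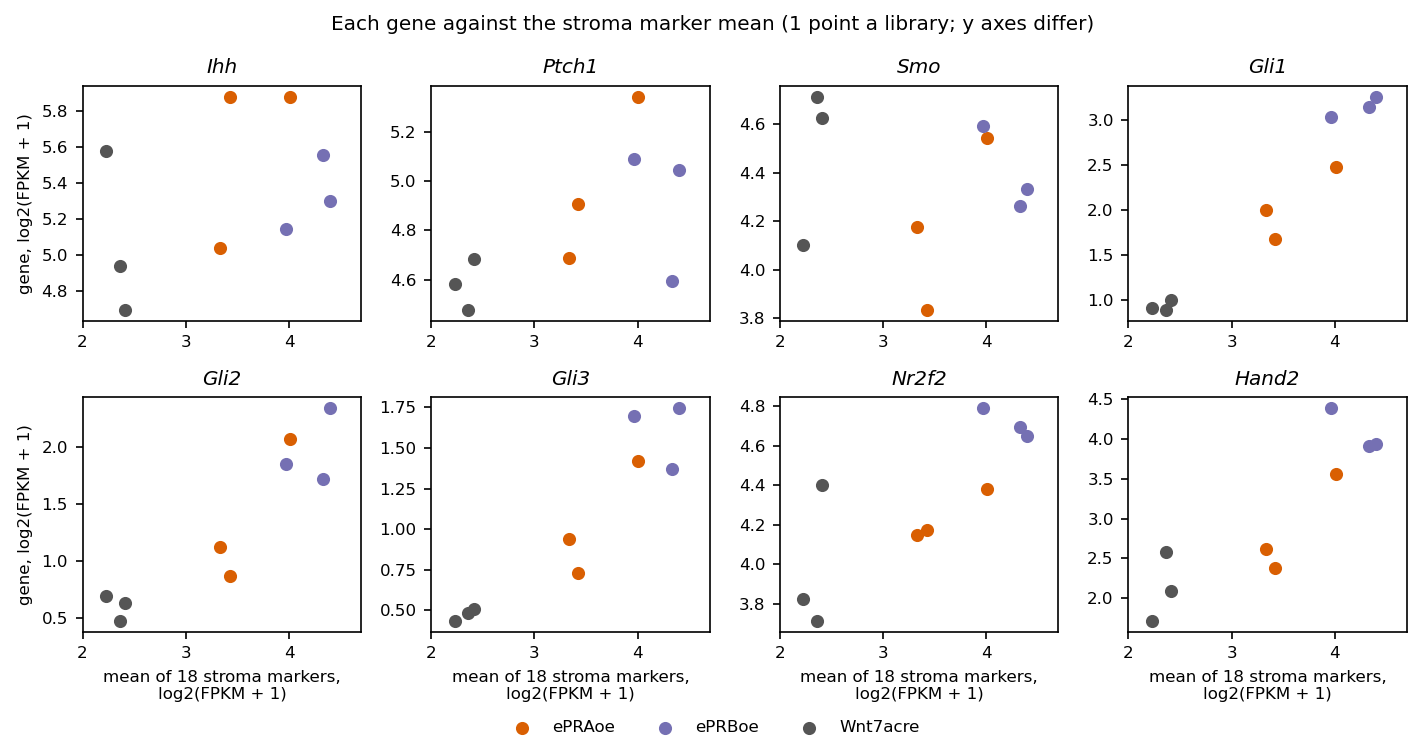
Level of each gene (y axis, log2(FPKM + 1), a different range in each panel) against the mean of 18 stroma markers (x axis, log2(FPKM + 1)), with 1 point for each of the 9 libraries coloured by genotype. The stroma marker mean runs from 3.33 to 4.01 in ePRAoe, 3.97 to 4.40 in ePRBoe and 2.23 to 2.41 in Wnt7acre. Gli1, Gli2 and Gli3 have their highest value in ePRBoe replicate 3, where that mean is 4.40. Hand2 and Nr2f2 have theirs in ePRBoe replicate 1, where it is 3.97, below the 4.01 of ePRAoe replicate 3.

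Other cell types moved less evenly. Of 12 immune cell markers 4 were called lower in ePRAoe and 5 higher in ePRBoe than in Wnt7acre, and 5 were higher in ePRBoe than in ePRAoe. The shares of all tested genes so called were 8.98% lower in ePRAoe, 6.41% higher in ePRBoe and 0.324% in either direction between the isoforms. Each of the 5 calls between isoforms was lost without ePRAoe replicate 2, ePRBoe replicate 1 or ePRBoe replicate 2, with adjusted p up to 0.19 (Tyrobp) to 0.427 (C1qc), and 4 of them (all but Fcer1g) without a run term. Against Wnt7acre, C1qc and Csf1r lost the call in ePRAoe without ePRAoe replicate 3 or Wnt7acre replicate 2, and Csf1r also without others, and 4 of the 5 markers in ePRBoe (all but Nkg7) lost it without Wnt7acre replicate 3. Of 7 tested endothelium markers, 2 (Cdh5 and Eng, both lost without ePRAoe replicate 2 or Wnt7acre replicate 3) were called higher in ePRBoe and none in ePRAoe, and of 5 tested smooth muscle markers 1 (Des) was called higher in ePRBoe. Of the 14 epithelium markers, 1 was called higher and 5 lower in ePRAoe, beside 7.2% and 8.98% of all tested genes. In ePRBoe 1 was called lower, beside 2.48%. The summed immune markers came to 141 to 190 FPKM in ePRAoe, 416 to 513 FPKM in ePRBoe and 206 to 433 FPKM in Wnt7acre libraries. The summed endothelium markers came to 16.0 to 33.7 FPKM in ePRAoe, 49.9 to 74.3 FPKM in ePRBoe and 13.8 to 20.5 FPKM in Wnt7acre, and those of smooth muscle to 24.8 to 51.9 FPKM in ePRAoe, 60.0 to 152 FPKM in ePRBoe and 16.9 to 33.9 FPKM in Wnt7acre. These 3 sums were thus higher in ePRBoe than in ePRAoe, without overlap, as Gli1 and Hand2 were. The 7 gland markers, of which 2 were tested and 1 was called lower in ePRAoe, summed to 0.326 to 3.72 FPKM in ePRAoe, 8.36 to 64.1 FPKM in ePRBoe and 16.5 to 47.1 FPKM in Wnt7acre, with up to 3 of them at 0 in a library. The part of these cells in the Gli1 and Hand2 differences was not tested.

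Against Wnt7acre, the other tested genes of the hedgehog pathway differed in both directions. Of 24 other pathway genes listed, 14 were tested, and those below the filter are not covered here. The difference was positive for 7 of the 14 in ePRAoe and for 9 of the 14 in ePRBoe. In ePRAoe 1 was called higher and 2 lower, beside 7.2% and 8.98% of all tested genes. In ePRBoe 1 was called higher and 0 lower, beside 6.41% and 2.48%. In limma's test 8 of the 14 had an unadjusted p under 0.05 in ePRAoe, beside 3936 of the 12347 tested genes. In ePRBoe 4 of the 14 did, beside 3182 of the 12347. The median log2 difference of the 14 genes was -0.0040 in ePRAoe and 0.14 in ePRBoe, near the -0.03 and 0.10 of all tested genes. In ePRBoe against ePRAoe 0 were called (0.324% of tested genes) and 12 of the 14 had a positive difference. The median there was 0.36, against 0.15 over all tested genes. Shh, Dhh, Scube3 and Foxf2 were not among the symbols used here.

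Scube1, a secreted protein of a family that helps release and carry hedgehog ligand, was the pathway gene called higher in both genotypes. It had 8.42, 5.17 and 17.8 FPKM in ePRAoe, 17.8, 16.9 and 20.1 FPKM in ePRBoe and 1.83, 2.77 and 2.60 FPKM in Wnt7acre libraries. It rose by 1.61 in ePRAoe (adjusted p = 0.00843) and by 2.83 in ePRBoe (adjusted p = 0.00555), and both groups were clear of the controls. Both calls held whichever single library was left out, and the ePRAoe call was lost in a fit of run 1 alone.

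The pathway genes called lower in ePRAoe were Gpr161, a ciliary receptor that restrains the pathway, and Hhat, which attaches the fatty acid to the ligand. Gpr161 fell by 1.87 in ePRAoe (0.891 ± 0.511 against 6.61 ± 4.20 FPKM in Wnt7acre, SD, n = 3 each, adjusted p = 0.00791), and the call was lost without ePRAoe replicate 2 or 3 or Wnt7acre replicate 2 or 3 (adjusted p up to 0.0565). In ePRBoe it averaged 1.26 ± 0.341 FPKM (log2 difference -1.47, adjusted p = 0.0509). Hhat fell by 0.91 in ePRAoe (0.939 ± 0.380 against 2.62 ± 0.340 FPKM in Wnt7acre, SD, n = 3 each, adjusted p = 0.0258), a call that any 1 missing library of ePRAoe or Wnt7acre ended (adjusted p up to 0.111). Co-receptors Cdon, Boc and Gas1 and the Gli inhibitor Sufu did not pass in either genotype.

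**Figure D5:**
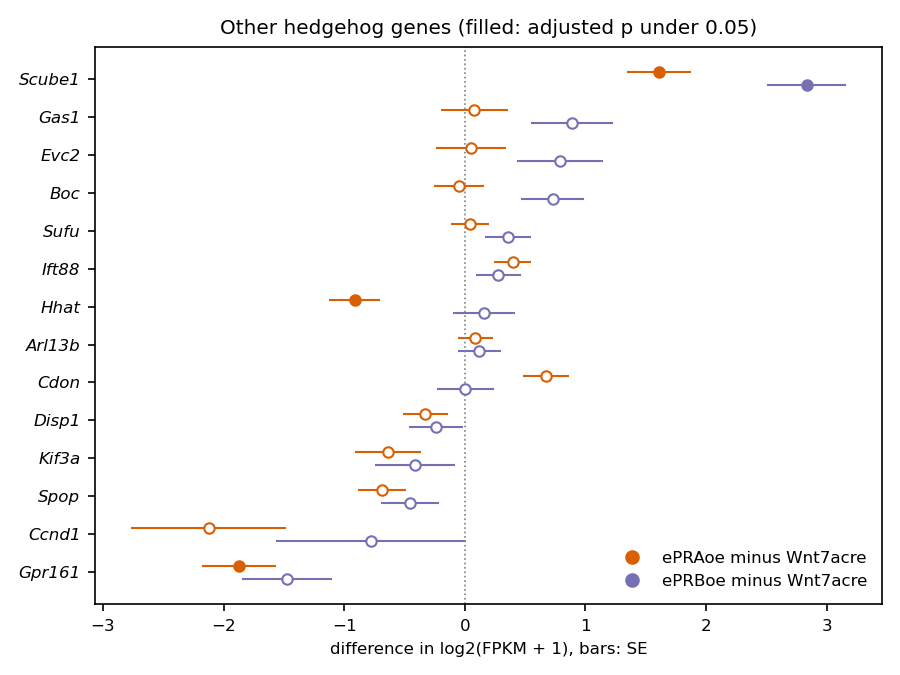
Difference in log2(FPKM + 1), with bars of 1 SE (x axis), for the 14 tested hedgehog genes outside the 8 members, in ePRAoe minus Wnt7acre and ePRBoe minus Wnt7acre; filled points passed an adjusted p of 0.05. Scube1 lies at 1.61 and 2.83 and Gpr161 at -1.87 and -1.47, with most other genes within 1 of zero.

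Beside Ihh, a list of other epithelial progesterone genes was examined. Of 11 listed and 10 tested, 7 were called higher in ePRAoe and 6 in ePRBoe, none lower, beside 7.2% and 6.41% of all tested genes called higher. The median log2 difference was 1.21 in ePRAoe and 1.53 in ePRBoe, against -0.03 and 0.10 over all tested genes. The list was chosen with earlier results of these data known and holds Pgr, the overexpressed gene, so nothing is read from these counts and medians. Of the ePRAoe calls, Areg (adjusted p up to 0.145) and Klf15 (up to 0.0791) were lost without ePRAoe replicate 2 or 3 or Wnt7acre replicate 2 or 3, and Sox17 without ePRAoe replicate 2 or Wnt7acre replicate 3 (up to 0.0634). Of the ePRBoe calls, Calca (0.0804) and Fkbp5 (0.101) were lost without Wnt7acre replicate 3, and Lrp2 without that library or ePRBoe replicate 1 or 2 (up to 0.18). Gata2, a transcription factor that acts with the progesterone receptor upstream of Ihh, had 186, 115 and 90.8 FPKM in ePRAoe, 124, 149 and 162 FPKM in ePRBoe and 54.9, 21.6 and 47.0 FPKM in Wnt7acre libraries. It rose by 1.68 in ePRAoe (adjusted p = 0.00219) and 1.80 in ePRBoe (adjusted p = 0.00643), without overlap with the controls and without any 1 library ending either call. Gata2 and Pgr were thus called higher in both genotypes, whereas Ihh was called in neither. The Pgr call in ePRBoe was lost without ePRAoe replicate 2, ePRBoe replicate 2 or 3, or Wnt7acre replicate 3 (adjusted p up to 0.187).

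Beside Hand2, a list of fibroblast growth factors, their receptors and other regulators of the uterus held 12 genes, of which 9 were tested. In each overexpressing genotype 2 were called higher (Hoxa10 and Hoxa11) and 1 lower (Fgf9). Of all tested genes, 7.2% were called higher and 8.98% lower in ePRAoe, and 6.41% and 2.48% in ePRBoe. Fgf9, one of the fibroblast growth factors of the uterus, had 0.790, 0.110 and 1.80 FPKM in ePRAoe, 2.72, 1.45 and 1.86 FPKM in ePRBoe and 14.6, 41.9 and 28.3 FPKM in Wnt7acre libraries. It fell by 3.93 in ePRAoe (adjusted p = 0.00116) and by 2.91 in ePRBoe (adjusted p = 0.00716), and every control library stood far above the other 6. Leaving out Wnt7acre replicate 3 ended the Fgf9 call in ePRBoe (adjusted p = 0.0806). The ePRAoe and ePRBoe libraries overlapped. The growth factors Fgf1 and Fgf18 passed in neither genotype.

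The homeobox genes Hoxa10 and Hoxa11, which pattern the uterus and are active in its stroma, were called higher in both genotypes. Hoxa11 averaged 14.9 ± 4.82 FPKM in ePRAoe, 25.8 ± 3.38 FPKM in ePRBoe and 4.66 ± 0.628 FPKM in Wnt7acre libraries (SD, n = 3 each) and rose by 1.45 (adjusted p = 0.0052) in ePRAoe and by 2.48 (adjusted p = 0.00439) in ePRBoe. Hoxa10 averaged 12.6 ± 5.74 FPKM in ePRAoe, 17.3 ± 1.48 FPKM in ePRBoe and 4.69 ± 1.37 FPKM in Wnt7acre libraries (SD, n = 3 each). It rose by 1.20 in ePRAoe (adjusted p = 0.0221), which was lost without ePRAoe replicate 3 or Wnt7acre replicate 2 (up to 0.0612), and by 1.66 in ePRBoe (adjusted p = 0.0227), which was lost without ePRAoe replicate 2, any ePRBoe library or Wnt7acre replicate 3 (up to 0.0776).

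The genes whose log2 profile over the 9 libraries was most like that of each member were picked by Pearson's r, as a description without a test. The libraries share genotype, run and stroma marker content, so that high r is easily reached. Nearest to Gli1 were Wfdc1 (r = 0.993), Lrp1 (0.990) and C1ra (0.989), and nearest to Hand2 were Dpysl4 (0.981), Mgp (0.981) and Lrrc17 (0.980). Wfdc1 averaged 20.9 FPKM in ePRAoe, 42.5 FPKM in ePRBoe and 8.76 FPKM in Wnt7acre, and Mgp 60.5 FPKM in ePRAoe, 133 FPKM in ePRBoe and 38.3 FPKM in Wnt7acre. Nearest to Gli2 was Cd109 (0.986), to Gli3 Rhobtb3 (0.991) and to Nr2f2 Pfn2 (0.976). The profiles of Ptch1, Smo and Ihh ran with other genes: Usp46 (0.957) for Ptch1, Fyco1 (0.966), among the nearest, for Smo and Mkks (0.924) for Ihh.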

How the data were processed

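RNA-seq of 9 libraries, 3 each of ePRAoe, ePRBoe and Wnt7acre, was used. The authors deposited 1 table of FPKM for 15158 gene symbols, per the file headers. Per the submitters' processing notes, the tools were STAR 2.5.2b, featureCounts 1.5.0-p1, edgeR 3.28.0 and limma 3.42.2, on mm10. Which annotation, gene lengths and strand setting lie behind the FPKM was not given in the sources used here. Positions and exonic lengths came from GENCODE M21 and promoter windows from RefSeq.

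Since the deposited table gives neither counts nor library depths, no counting interval was computed. Low values lay on 1 common step within 0.0006 FPKM for 45.7% of 860 low genes, which with annotated lengths implied a median of 11.7 M reads (quartiles 8.72 and 13.1 M), an approximate figure. The libraries summed to 272213 to 314010 FPKM, and 11074 to 12300 genes reached 1 FPKM. Alphabetical order was broken by 4316 symbols, among them 6 of the 8 members (not Smo and Nr2f2). Across genes, which are not independent replicates, implied and annotated lengths correlated with a Spearman's rho of 0.351 for 49 such genes and 0.499 for 331 ordered ones.

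FPKM was transformed as log2(FPKM + 1). The test took the 12347 genes that reached 1 FPKM in 3 or more libraries, leaving 2811 out. Genotype and run were fitted in all 9 libraries by limma 3.58.1 (R 4.3.3) with a variance trend (4 residual and 3.64 prior degrees of freedom), two-sided, with Benjamini-Hochberg adjustment over all tested genes and a threshold of 0.05. The run comes from the library descriptions. Adjusted p-values in the text are from this test. Exact permutation tests used 20 regroupings for 3 against 3. The procedure was tested on simulated data. A few genes are not reported here and were left out of the lists. The members and gene lists were chosen with earlier results of these data known. From each list, up to 4 called genes with the largest moderated statistic were to be named; other genes named were chosen after their values were seen. Pseudocount, filter, normalization, variance trend, run term, replicate block, the libraries in the fit and each single library were varied.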

Additional observations from a re-analysis of the deposited data

How the results depend on the processing

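Of the 504 member values recomputed under other settings, 446 kept their direction and their side of the threshold, 15 gained a call, 20 lost one and 23 changed sign, none of the last a called value. Under the replicate block, the number of called genes was 1113 for ePRAoe and 4 for ePRBoe against ePRAoe, and the block gave Nr2f2 a call in ePRBoe (0.73, adjusted p = 0.0376). Whether the replicate numbers pair the libraries was not settled. Deviations from the group mean correlated at -0.23 to 0.17 between same-numbered libraries and at -0.26 to 0.31 between libraries of the same run. In the 3 comparisons 3, 0 and 1 of 6 libraries correlated best with their own number. Deviations within a group of 3 sum to 0 for each gene, so these correlations are constrained and cannot decide the pairing.

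Genes called in ePRAoe against Wnt7acre (1998) came to 1063 with only the compared genotypes or only run 1, and to 747 to 2719 without single libraries. In ePRBoe against Wnt7acre (1098) they came to 1786 without a run term and to 232 to 1602 without single libraries. In ePRBoe against ePRAoe (40) they came to 19 without a filter, 22 with median-of-ratios factors, 16 with quantile normalization, 7 without a run term, 453 with the compared genotypes, 447 with run 1 and 0 to 546 without single libraries. Members called in ePRAoe (1) came to 2 with either other pseudocount, median-of-ratios factors or quantile normalization, to 0 with the compared genotypes, and to 0 to 2 without single libraries. Members called in ePRBoe (4) came to 2 with quantile normalization, the compared genotypes or run 1 and to 2 to 4 without single libraries, and between isoforms (0) to 2 with the compared genotypes or run 1 and to 0 to 1.

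Signs changed for Smo in ePRBoe with median-of-ratios factors (-0.13), quantile normalization (-0.041), no run term or the block (-0.084 each), the compared genotypes or run 1 (-0.23 each), and over -0.23 to 0.51 without single libraries. Ptch1 between isoforms turned to 0.0022 with the compared genotypes or run 1 and ranged from -0.26 to 0.073 without single libraries, and Nr2f2 in ePRAoe turned to -0.23 in run 1. Without single libraries the isoform differences ranged from -0.55 to 0.44 for Ihh, -0.18 to 0.54 for Nr2f2 and -0.18 to 0.56 for Smo, each turning without ePRAoe replicate 2, and Ihh in ePRBoe ranged from -0.35, without Wnt7acre replicate 3, to 0.64. The cause was not tested.

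Scaling moved the median log2 difference of all genes in ePRBoe against Wnt7acre from 0.10 to -0.03 with median-of-ratios factors and -0.02 with quantile normalization, and the share of called genes that were higher from 72.1% to 56.4% and 56.9%. The isoform median moved from 0.15 to -0.02 and -0.03. With 3 libraries a group and no counts, the 95% intervals of Ihh, Ptch1 and Smo span 0 in every comparison, and the Gli genes lay under 1 FPKM in every control.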
